A study of Saccharomyces cerevisiae and Saccharomyces cerevisiae x Saccharomyces paradoxus and Saccharomyces cerevisiae x Saccharomyces mikatae with 18 samples.

Results

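The 40 genes described here carry sulfur from sulfate into methionine, cysteine and S-adenosylmethionine, bring methionine into the cell, or control the genes that do so. They were chosen by name, as a list of open reading frames, and not by any measured value. The deposited tables list 4730 genes, and 37 of the 40 are among them. SAM4 (YPL273W), MHT1 (YLL062C) and MMP1 (YLL061W) were not analysed here. Each value is a score for the transcript ends of 1 gene in 1 library, made from reads weighted for GC content. Each library, or allele of a hybrid library, was scaled here by its own upper quartile, so a level is relative to the other genes of that library, and log2 ratios were taken after adding 1.

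The study profiled poly-adenylated transcript ends in 18 libraries of yeasts grown in YPD medium at 25 °C to log phase. The hybrids were S. cerevisiae crossed with S. paradoxus, with S. mikatae and with S. bayanus, with 2 libraries each, in which reads were assigned to the allele of 1 parent. The homozygotes were S. paradoxus CBS 432, S. mikatae IFO 1815 and S. bayanus CBS 7001 with 2 libraries each, and S. cerevisiae BY4741 x BY4716 with 6 libraries, 2 for each pair of genomes. Homozygote ratios and allele ratios, each over S. cerevisiae, were set beside each other because alleles in a hybrid share 1 cell, while homozygotes do not. All hybrids had BY4716 as their S. cerevisiae parent and carried 1 deleted copy of LYS2. The S. paradoxus hybrid (YYM014) also carried ade2 and ura3 on 1 chromosome each, the S. mikatae hybrid (YYM030) his3Δ, and the S. bayanus hybrid (YYM015) his3 and ura3. The S. cerevisiae homozygote carried 1 deleted copy each of LYS2, LEU2, HIS3, URA3 and MET15, although its label calls it wild type. MET15 is an older name of MET17, which is among the genes described, so the S. cerevisiae homozygote had 1 intact copy of MET17 the homozygotes of the other species had a pair, and each allele of a hybrid had 1. Each group was 1 strain, so species and strain cannot be told apart. The study's methods call the libraries of a group biological replicates.

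Yeast takes up sulfate, activates it with ATP, reduces it to sulfite and then to sulfide, and joins the sulfide to a carbon chain made from aspartate. The product, homocysteine, is methylated to methionine or passed to cysteine, and methionine is in turn activated to S-adenosylmethionine, the main methyl donor of the cell. The genes of this pathway are known for being switched on together by the activator Met4. Met4 does not bind DNA by itself but is brought to promoters by Cbf1, which binds the letters CACGTG, together with Met28, or by the zinc-finger proteins Met31 and Met32. Met30, the substrate-binding part of a ubiquitin ligase, holds Met4 inactive when sulfur compounds are plentiful, as they are in rich medium.

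The letters that Cbf1 binds, and those bound by Met31 and Met32, are shown for 6 genes that were higher in S. bayanus homozygotes and that recur in the results. All 6 hold CACGTG, whereas STR2 and ADI1, also higher there, do not. The sequences are from the S. cerevisiae reference genome of RefSeq (build R64), written 5′ to 3′ on the strand of the gene, and capitals mark the Cbf1 letters CACGTG, the core of the Met31 and Met32 site, TGTGGC, or its longer form AAACTGTGG, on either strand. The MET3 stretch ends 225 bases before the start codon (chrX:455842-456014, plus strand) and MET14's ends 167 bases before the start codon (chrXI:439552-439633, minus strand). The MET10 stretch ends 180 bases before the start codon (chrVI:213043-213132, plus strand), the MET17 one 275 bases before the start codon (chrXII:732222-732267, plus strand), the MET28 one 125 bases before the start codon (chrIX:384244-384424, minus strand) and the CBF1 one 143 bases before the start codon (chrX:548571-548616, plus strand).
MET3: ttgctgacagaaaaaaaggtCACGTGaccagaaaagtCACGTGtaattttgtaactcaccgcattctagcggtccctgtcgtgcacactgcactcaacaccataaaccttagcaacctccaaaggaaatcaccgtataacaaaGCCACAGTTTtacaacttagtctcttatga
MET14: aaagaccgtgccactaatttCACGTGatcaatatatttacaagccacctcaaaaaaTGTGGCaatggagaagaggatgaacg
MET10: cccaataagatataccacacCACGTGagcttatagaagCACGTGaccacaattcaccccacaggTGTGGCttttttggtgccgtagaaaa
MET17: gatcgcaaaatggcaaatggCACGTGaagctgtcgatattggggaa
MET28: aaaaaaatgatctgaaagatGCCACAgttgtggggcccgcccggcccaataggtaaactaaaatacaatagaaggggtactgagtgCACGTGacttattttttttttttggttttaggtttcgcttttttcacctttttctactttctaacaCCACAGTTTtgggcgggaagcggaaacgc
CBF1: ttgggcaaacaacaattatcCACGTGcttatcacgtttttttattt
CACGTG stood at a pair of places in MET3 and MET10, and at 1 place in MET14, MET17, MET28 and CBF1. In MET3 the AAACTGTGG and TGTGGC matches overlap in a single run on the opposite strand. Over the 400 bases before the start codon, searched on both strands, CACGTG was found in 21 of the 40 genes (52.5%), against 5.09% of 6007 annotated genes. TGTGGC was found in 24 of the 40 (60.0%), against 11.3% of annotated genes. AAACTGTGG was found in 11 of the 40 (27.5%), against 0.732%. SUL1, HOM2, MET7, STR2, SAM4, MRI1 and MET31 held none of these. The matches describe the S. cerevisiae sequence only, and the sequences of the other species were not searched here.

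Scores of a homozygote library summed to between 4760197 and 6883279, and those of a single allele to between 2255430 and 3336994, so that allele ratios rested on fewer reads. Between replicates, log2 scaled scores across genes had correlations of 0.896 to 0.934, where genes are not independent replicates. As a check of growth state, 8 of 10 post-diauxic and stress genes were listed. Their summed scaled score was 849 to 906 in S. paradoxus homozygotes against 1432 to 1694 in the S. cerevisiae libraries of that pair, 333 to 345 in S. mikatae against 559 to 746, and 1307 to 1543 in S. bayanus against 761 to 888. Most of the S. bayanus sum was 1 gene, HXK1, with 887 and 971 against 62.9 and 131 in S. cerevisiae. Of the 8 genes, 5 had a log2 ratio above 0 in S. bayanus and 3 below. By the test used below 1 was called higher there and 2 lower, beside 18.3% and 16.3% of all genes. In S. paradoxus 1 of the 8 was above 0 and 7 below, with 0 called higher and 3 lower, beside 8.37% and 11.5%. In S. mikatae 1 was above 0 and 7 below, with 1 called in each direction, beside 8.21% and 11.4%. The homozygote ratio was below the allele ratio for 7 of the 8 in S. paradoxus, 6 in S. mikatae and 7 in S. bayanus. In the S. bayanus hybrid the sum was 674 and 535 on the S. bayanus allele and 358 and 368 on the S. cerevisiae allele. At most 1 of the 8 was at 0 in any homozygote library. Of 12 haploid-specific genes, 11 were listed, with sums of 221 to 380 in the homozygotes of the other species and 209 to 682 in those of S. cerevisiae. The part of growth state in the differences below was not tested. The values are averages over a culture, so more cells with a transcript and more transcript per cell cannot be told apart.

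More of these genes differed from S. cerevisiae in S. bayanus than in the other species, as was so over all genes. In homozygotes, 15 of 37 genes passed the test in S. bayanus, 11 higher and 4 lower, where 34.6% of 4576 genes tested passed in either direction, 18.3% higher and 16.3% lower. In S. mikatae homozygotes 8 of 36 tested genes passed, 4 in each direction, where 19.6% of 4568 genes passed, 8.21% higher and 11.4% lower. In S. paradoxus homozygotes 6 of 37 genes passed, 4 higher and 2 lower, where 19.9% of 4588 genes passed, 8.37% higher and 11.5% lower. Between alleles of the hybrids, 10 of 36 tested genes passed for S. bayanus, 6 higher and 4 lower, where 35.4% of 4533 genes passed, 18.3% higher and 17.1% lower. Between S. mikatae alleles 8 of 35 passed, 4 in each direction, where 15.8% of 4537 passed, 7.78% higher and 7.98% lower. Between S. paradoxus alleles 2 of 33 passed, 0 higher and 2 lower, where 5.03% of 4509 passed, 2.46% higher and 2.57% lower. An unadjusted p under 0.05 was found there for 6 of the 33 and for 1253 of the 4509. In homozygotes it was found for 1796 of 4588 genes in S. paradoxus, 1796 of 4568 in S. mikatae and 2205 of 4576 in S. bayanus. Sulfur genes counted below by an unadjusted p stand beside such counts. The counts that passed lay near the shares of all genes that passed, and the widest gap was in the genes called higher in S. bayanus homozygotes, 11 of 37 beside 18.3%. That gap is a description of the list and was not tested. The median log2 ratio of the sulfur genes was 0.48 in S. bayanus homozygotes beside 0.02 over all genes, 0.41 in S. mikatae beside -0.13 and -0.26 in S. paradoxus beside -0.20. Scaling by total score moved the medians over all genes to -0.46 in S. paradoxus and -0.47 in S. mikatae homozygotes, and to 0.00 in S. bayanus, so directions in the first 2 species are relative to that shift. Of all genes called, 42.2% were higher in S. paradoxus and 41.9% in S. mikatae homozygotes under the upper quartile, and 28.5% and 25.9% under the total score. Under the total score 3 higher and 6 lower sulfur genes passed in S. paradoxus and 3 higher and 6 lower in S. mikatae. The test throughout was limma on log2 values, with p-values adjusted over all genes by the Benjamini-Hochberg method and 2 libraries or alleles in each group, and ± gives the standard error of a log2 ratio. Many genes with values per library were picked for groups that did not overlap, so that trait adds no support to a call. In homozygotes it held for 26 of 37 tested sulfur genes in S. paradoxus and 26 of 36 in S. mikatae, called or not. The count was 27 of 37 in S. bayanus, and the share over all genes was not taken.

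**Figure D1:**
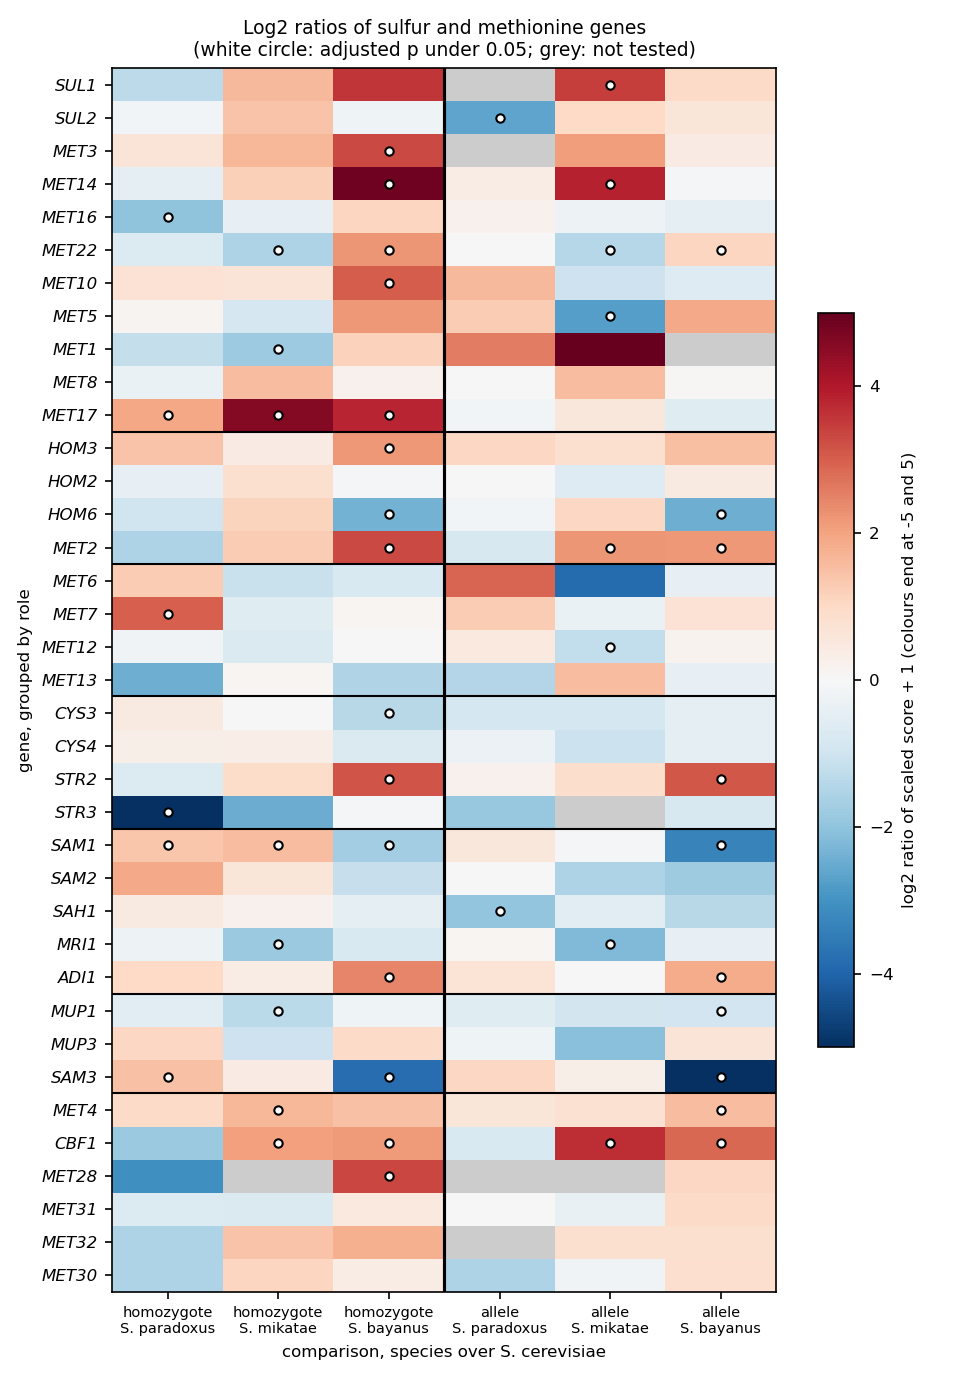
Log2 ratio of each of the 37 genes (rows, grouped by role) over S. cerevisiae in homozygotes and between alleles of hybrids (columns), with colours from -5 to 5, white circles where the adjusted p was under 0.05 and grey where the mean score was too low to test. MET17 had a circle in all 3 homozygote columns and in none of the allele columns, and the S. bayanus homozygote column had 15 circles. The colour of MET1 between S. mikatae alleles is no fold, since the S. cerevisiae allele was listed at 0 in both libraries.

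MET17 (YLR303W) encodes the enzyme that joins sulfide to O-acetylhomoserine, the step at which inorganic sulfur enters the carbon chain. Its level was higher in the homozygotes of all 3 species than in S. cerevisiae, and the alleles of hybrids did not pass the test in any pair. The scaled score was 5278 and 3597 in S. bayanus homozygotes, against 364 and 259 in the S. cerevisiae homozygotes of that pair (log2 ratio 3.82 ± 0.32, adjusted p = 0.00995). In S. mikatae homozygotes it was 2829 and 10622, against 319 and 164 in S. cerevisiae (log2 ratio 4.58 ± 0.78, adjusted p = 0.0348). In S. paradoxus homozygotes it was 448 and 269.6, against 94.1 and 84.9 in S. cerevisiae (log2 ratio 1.95 ± 0.37, adjusted p = 0.0374). No library of any other species overlapped with the S. cerevisiae libraries of its pair, but the S. paradoxus values lay within or just above the range of 84.9 to 364 over all 6 S. cerevisiae libraries. With all 6 as the reference, the S. paradoxus log2 ratio was 0.91 and its adjusted p was 0.308. On the alleles of the hybrids the gap between species was smaller or reversed in sign. In the S. bayanus hybrid the S. bayanus allele had 1408 and 1242 and the S. cerevisiae allele 2057 and 1937 (log2 ratio -0.59 ± 0.17, adjusted p = 0.0640). In the S. mikatae hybrid the S. mikatae allele had 2183 and 666 and the S. cerevisiae allele 918 and 724 (log2 ratio 0.56 ± 0.65, adjusted p = 0.568). In the S. paradoxus hybrid the S. paradoxus allele had 165 and 86.6 and the S. cerevisiae allele 168 and 101 (log2 ratio -0.12 ± 0.49, adjusted p = 0.895). The alleles overlapped in the S. paradoxus and S. mikatae hybrids and not in the S. bayanus hybrid. Within each library the S. bayanus and the S. paradoxus allele were the lower, and the S. mikatae allele was the higher in 1 library and the lower in the other.

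**Figure D2:**
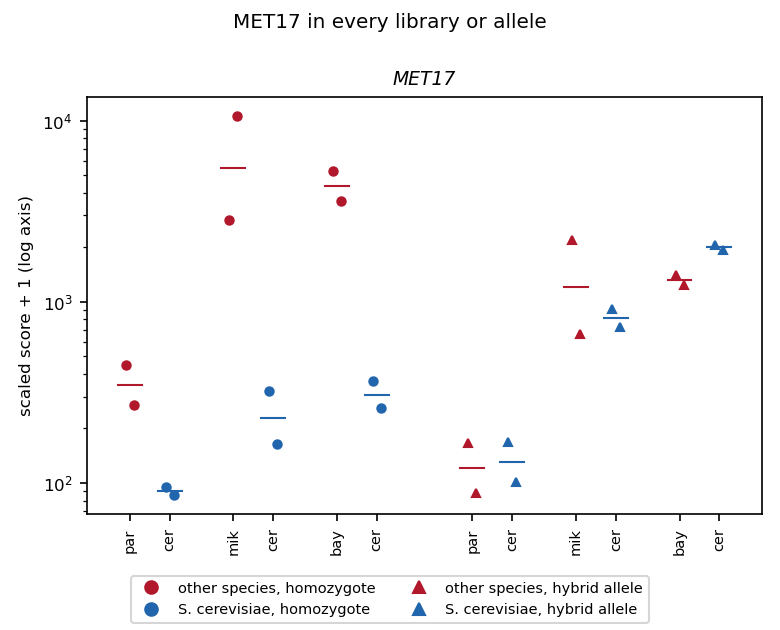
Scaled score plus 1 of MET17 on a log axis in every homozygote library (circles) and every allele of a hybrid library (triangles), each species (red) left of the S. cerevisiae values of its pair (blue), with lines at the geometric means. Homozygotes of the other species lie above S. cerevisiae in each pair, and the S. cerevisiae allele of the S. bayanus hybrid lies at 1937 and 2057.

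The difference between the homozygote and the allele ratio of MET17 was tested directly. In the S. bayanus pair the homozygote ratio exceeded the allele ratio by 4.42 ± 0.38 on the log2 scale (adjusted p = 0.0142), and it also passed with the hybrid library as a block (adjusted p = 0.0433). With 1 library left out the difference was 4.14 to 4.69, and not every such fit kept the call. In S. mikatae the homozygote ratio exceeded the allele ratio by 4.01 ± 1.14 on the log2 scale (adjusted p = 0.212) and in S. paradoxus by 2.07 ± 0.65 on the log2 scale (adjusted p = 0.159), neither of which passed. The S. cerevisiae side of MET17 was itself unequal: the S. cerevisiae allele had a median of 821 over the 6 hybrid alleles, with a range of 101 to 2057, against a median of 211 in the 6 homozygote libraries, with a range of 84.9 to 364. A deleted copy of MET17 is present in every S. cerevisiae homozygote and in no other group, so the copy number and the species cannot be told apart in the homozygote comparison.

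Among the other genes that carry sulfate to sulfide, S. bayanus homozygotes stood higher at both steps of activation and at 1 subunit of sulfite reductase. MET3 (YJR010W), ATP sulfurylase, had 331 and 1252 in S. bayanus homozygotes, against 43.8 and 95.2 in S. cerevisiae (log2 ratio 3.29 ± 0.81, adjusted p = 0.0452). MET14 (YKL001C), the kinase that follows it, had 392 and 364 in S. bayanus, against 10.6 and 13.2 in S. cerevisiae (log2 ratio 4.88 ± 0.30, adjusted p = 0.00986), and 3.81 on the log2 scale against all 6 S. cerevisiae libraries. MET10 (YFR030W), a subunit of sulfite reductase, had 885 and 984 in S. bayanus, against 110.2 and 119 in S. cerevisiae (log2 ratio 3.02 ± 0.22, adjusted p = 0.00995). The S. bayanus libraries lay above the S. cerevisiae ones without overlap in each of these, though MET3 differed widely between the S. bayanus libraries and had an adjusted p of 0.0502 in a fit without a mean-variance trend. MET22 (YOL064C), the phosphatase that clears the by-product of sulfate reduction, also rose, with 1437 and 1571 in S. bayanus against 343 and 308 in S. cerevisiae (log2 ratio 2.21 ± 0.21, adjusted p = 0.0100). With MET17, 5 of the 11 genes of uptake and reduction rose in S. bayanus homozygotes and none fell, beside 18.3% higher and 16.3% lower of all genes, and their median log2 ratio was 2.21. Between alleles 1 of the 10 tested was higher and none lower, with a median of 0.23. These counts were not tested against those of other genes. The remaining 6 did not pass: the other sulfite reductase subunit MET5 (YJR137C) had 1116 and 680.1 in S. bayanus and 77.7 and 465 in S. cerevisiae (log2 ratio 2.19 ± 0.96, adjusted p = 0.152), and MET16 (YPR167C), which reduces the activated sulfate, had a log2 ratio of 1.09 (adjusted p = 0.114).

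On the alleles of the S. bayanus hybrid MET3, MET14 and MET10 did not pass. MET14 had 16.3 and 24.4 on the S. bayanus allele and 34.7 and 12.3 on the S. cerevisiae allele (log2 ratio -0.06 ± 0.65, adjusted p = 0.953). MET10 had 209 and 164 on the S. bayanus allele and 473 and 175 on the S. cerevisiae allele (log2 ratio -0.64 ± 0.56, adjusted p = 0.423). MET3 had 7.39 and 177 on the S. bayanus allele and 18 and 44.6 on the S. cerevisiae allele (log2 ratio 0.39 ± 1.69, adjusted p = 0.875). The alleles overlapped for all 3 genes, and MET3 on the S. bayanus allele differed between libraries more than the alleles did. MET22 alone among the uptake and reduction genes passed here, with 1007 and 674 on the S. bayanus allele and 399.8 and 385 on the S. cerevisiae allele (log2 ratio 1.07 ± 0.26, adjusted p = 0.0479), but not with the library as a block (adjusted p = 0.0669), without a mean-variance trend (0.0623), with 1 upper quartile per hybrid library (0.0555), or without hybrid replicate 1 (0.149) or 2 (0.0624). The homozygote ratio of MET14 exceeded its allele ratio by 4.94 ± 0.75 on the log2 scale (adjusted p = 0.0375), which did not pass with the block (adjusted p = 0.0704), nor against all 6 S. cerevisiae homozygote libraries (3.87, adjusted p = 0.121). For MET10 the difference was 3.65 ± 0.65 on the log2 scale (adjusted p = 0.0505), which passed only with the block (adjusted p = 0.0498). Over all genes 1.84% of 4575 passed this test in the S. bayanus pair, 1.25% with the homozygote ratio higher and 0.59% lower, and MET14 and MET17 were the 2 that passed among the 37.

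**Figure D3:**
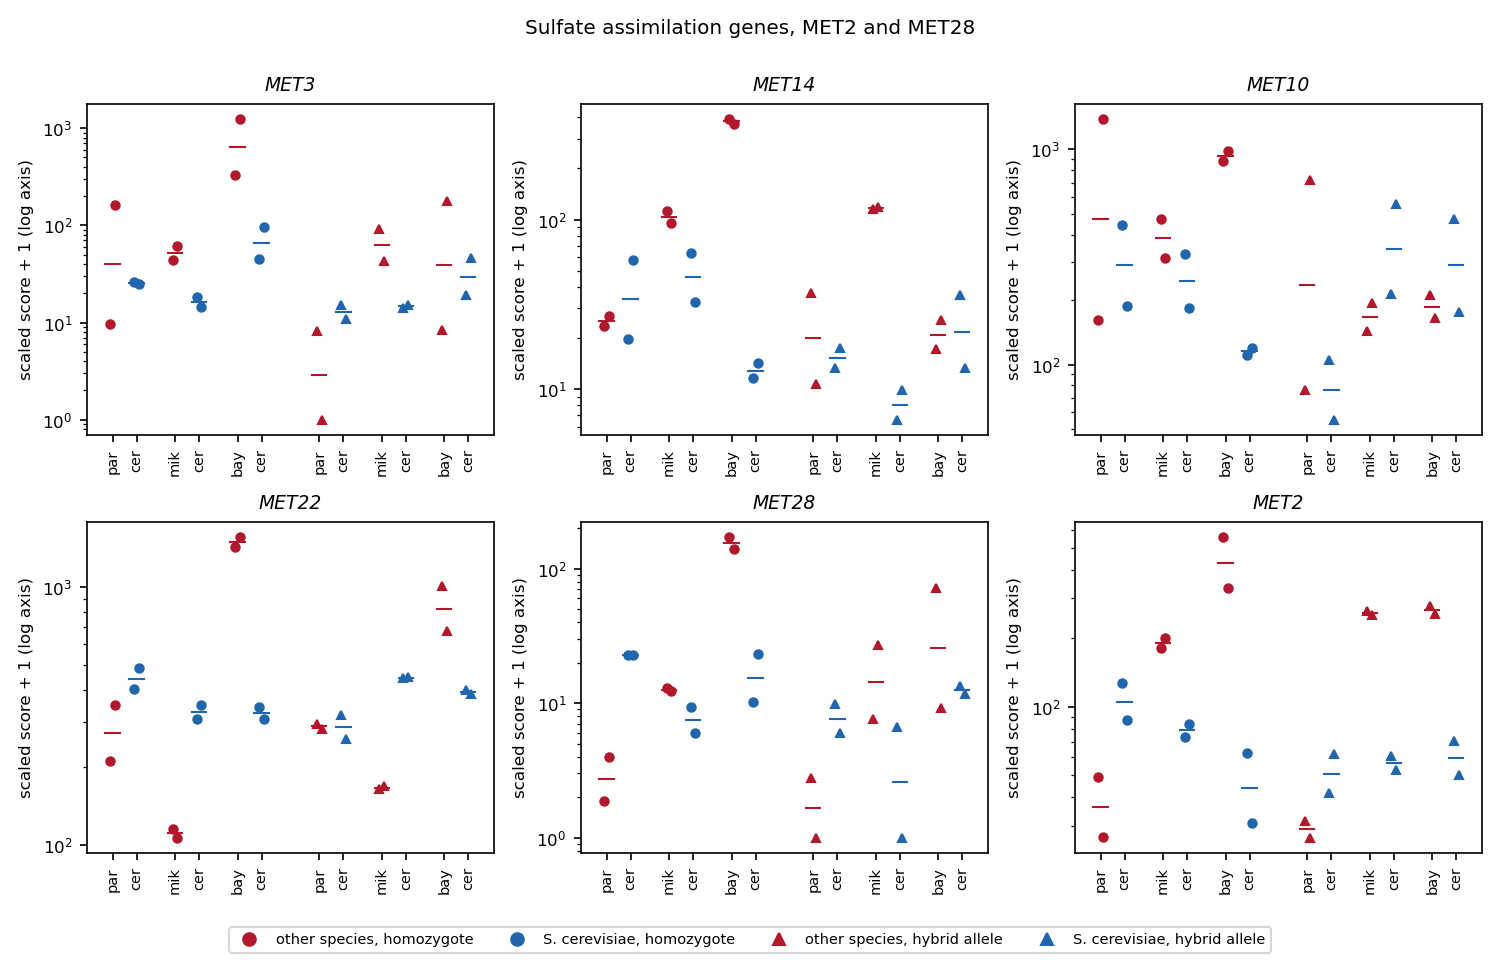
Scaled score plus 1 on a log axis of MET3, MET14, MET10, MET22, MET28 and MET2 in every homozygote library (circles) and hybrid allele (triangles), each species (red) left of S. cerevisiae (blue), with lines at the geometric means. In MET14 the S. bayanus homozygotes lie at 392 and 364 above S. cerevisiae at 10.6 and 13.2, and both alleles of the S. bayanus hybrid lie between 12.3 and 34.7.

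In S. mikatae homozygotes, apart from MET17, 2 genes of uptake and reduction fell and none rose. MET22 had 115 and 106 in S. mikatae homozygotes, against 308 and 347 in S. cerevisiae (log2 ratio -1.56 ± 0.26, adjusted p = 0.0338), the opposite direction to S. bayanus. MET1 (YKR069W), which makes part of the siroheme group of sulfite reductase, had 29.3 and 28.6 in S. mikatae, against 93.3 and 119 in S. cerevisiae (log2 ratio -1.83 ± 0.33, adjusted p = 0.0384). Neither gene overlapped with S. cerevisiae. Between alleles, MET14 had 114 and 117 on the S. mikatae allele and 5.6 and 8.9 on the S. cerevisiae allele (log2 ratio 3.85 ± 0.42, adjusted p = 0.0253). MET5 had 41.2 and 47 on the S. mikatae allele and 196 and 463 on the S. cerevisiae allele (log2 ratio -2.75 ± 0.51, adjusted p = 0.0424), and MET22 had 163 and 169 on the S. mikatae allele and 442 and 447 on the S. cerevisiae allele (log2 ratio -1.42 ± 0.23, adjusted p = 0.0365). None of these alleles overlapped, and MET22 was lower in S. mikatae in homozygotes and hybrids alike. SUL1 (YBR294W), a sulfate permease named after its values were seen, had 51.1 and 48.6 on the S. mikatae allele and 3.73 and 3.56 on the S. cerevisiae allele (log2 ratio 3.45 ± 0.47, adjusted p = 0.0297). Before scaling, the S. cerevisiae allele had scores of 2 and 2 for SUL1 and 3 and 5 for MET14. Both ratios thus depend on the constant added, and were 2.31 to 3.60 and 3.02 to 4.12 over the alternatives run. With the hybrid library as a block none of the 8 sulfur genes and 0 of all genes passed limma's test between S. mikatae alleles, 16 sulfur genes had an unadjusted p under 0.05, and the adjusted p of the 8 was 0.0755 to 0.101. Without the block an unadjusted p under 0.05 was found for 15 of 35 sulfur genes and for 1697 of 4537 genes in all.

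In S. paradoxus, MET16 fell and MET17 rose among the 11 genes in homozygotes. MET16 had 37 and 42.1 in S. paradoxus homozygotes, against 189 and 142 in S. cerevisiae (log2 ratio -2.02 ± 0.34, adjusted p = 0.0315), while the alleles of the hybrid had 107 and 104 for S. paradoxus and 84.9 and 99 for S. cerevisiae (log2 ratio 0.20 ± 0.32, adjusted p = 0.716). SUL2 (YLR092W), the other sulfate permease, had 25.1 and 37.8 on the S. paradoxus allele and 184 and 216 on the S. cerevisiae allele (log2 ratio -2.65 ± 0.39, adjusted p = 0.0451), and in homozygotes 40.5 and 83.5 in S. paradoxus and 77.4 and 52.6 in S. cerevisiae. The allele ratio of SUL2 had an adjusted p of 0.119 with the library as a block and 0.055 when scaled by total score. Its call was lost in 5 of 12 alternatives, 2 of which left out a hybrid library. The sulfite reductase subunits varied widely between the S. paradoxus homozygote libraries, where MET5 had 101 and 1663 and MET10 had 160.2 and 1388.

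The carbon chain that receives sulfide comes from aspartate by way of HOM3 (YER052C), HOM2 (YDR158W), HOM6 (YJR139C) and MET2 (YNL277W). In S. bayanus homozygotes HOM3, aspartate kinase, and MET2, which makes O-acetylhomoserine, rose, and HOM6, homoserine dehydrogenase, fell. MET2 had 557 and 329.5 in S. bayanus homozygotes, against 61.5 and 29.9 in S. cerevisiae (log2 ratio 3.29 ± 0.51, adjusted p = 0.0174), and 277 and 255 on the S. bayanus allele, against 69.4 and 49.2 on the S. cerevisiae allele of the hybrid (log2 ratio 2.16 ± 0.28, adjusted p = 0.0137). HOM6 had 353 and 485 in S. bayanus homozygotes, against 2181 and 2052 in S. cerevisiae (log2 ratio -2.35 ± 0.25, adjusted p = 0.0105). On the alleles of that hybrid HOM6 had 636 and 585 for S. bayanus and 3015 and 3596 for S. cerevisiae (log2 ratio -2.43 ± 0.18, adjusted p = 0.00764). Both genes thus moved the same way in homozygotes and alleles. The groups did not overlap in either, which adds no support to the calls. HOM3 had 1312 and 1423 in S. bayanus homozygotes and 345 and 261 in S. cerevisiae (log2 ratio 2.18 ± 0.24, adjusted p = 0.0113), but its 6 S. cerevisiae libraries ran as high as 1946, and against all 6 its adjusted p was 0.151. The S. mikatae allele of MET2 was also the higher, with 262 and 253 against 59.7 and 51.6 on the S. cerevisiae allele (log2 ratio 2.19 ± 0.27, adjusted p = 0.0272). HOM2, aspartate semialdehyde dehydrogenase, passed in no comparison, with homozygote log2 ratios of -0.04 in S. bayanus, 0.79 in S. mikatae and -0.41 in S. paradoxus.

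Homocysteine is methylated by MET6 (YER091C) with a methyl group from folate that MET12 (YPL023C), MET13 (YGL125W) and MET7 (YOR241W) help to supply. MET7, which adds glutamates to folate, had 1315 and 1839 in S. paradoxus homozygotes, against 195 and 198 in S. cerevisiae (log2 ratio 2.98 ± 0.30, adjusted p = 0.0225). The S. cerevisiae libraries had 306 and 698 in the S. mikatae pair and 515 and 496 in the S. bayanus pair, and the S. paradoxus values lay above all 6. In the S. paradoxus hybrid MET7 had 1920.3 and 2254 for S. paradoxus and 1271 and 591 for S. cerevisiae (log2 ratio 1.26 ± 0.46, adjusted p = 0.172). MET12, a methylenetetrahydrofolate reductase, had 169.9 and 195 on the S. mikatae allele and 429 and 420.0 on the S. cerevisiae allele (log2 ratio -1.22 ± 0.24, adjusted p = 0.0475), a call that scaling by the median of ratios put at an adjusted p of 0.0502. MET6 passed in no comparison, and its replicates were far apart: the S. paradoxus allele had 4391 and 666 and the S. cerevisiae allele of the S. bayanus hybrid 286 and 2577.

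Cysteine and homocysteine are converted into each other by CYS3 (YAL012W), CYS4 (YGR155W), STR2 (YJR130C) and STR3 (YGL184C). STR2, cystathionine gamma-synthase, was higher in S. bayanus in both settings, with 201 and 121 in homozygotes against 14.1 and 19.5 in S. cerevisiae (log2 ratio 3.16 ± 0.43, adjusted p = 0.0144). On the hybrid's alleles STR2 had 159.7 and 159 for S. bayanus and 22.2 and 13.8 for S. cerevisiae (log2 ratio 3.11 ± 0.35, adjusted p = 0.0113). CYS3, cystathionine gamma-lyase, fell in S. bayanus homozygotes, with 2470.0 and 3498 against 7381 and 7899 in S. cerevisiae (log2 ratio -1.38 ± 0.28, adjusted p = 0.0308), and did not pass against all 6 S. cerevisiae libraries (log2 ratio -0.78, adjusted p = 0.229). STR3, cystathionine beta-lyase, had 7.75 and 2.95 in S. paradoxus homozygotes, against 499.7 and 322 in S. cerevisiae (log2 ratio -6.09 ± 0.57, adjusted p = 0.0225), and its log2 ratio was -4.39 against all 6 S. cerevisiae libraries. Those S. paradoxus values were scores of 9 and 4 before scaling. STR3 was also the 1 sulfur gene of 37 that differed between the 3 sets of S. cerevisiae homozygote libraries (limma F-test, adjusted p = 0.0404, where 1.92% of 4575 genes passed, and 11 of the 37 and 1092 of the 4575 had an unadjusted p under 0.05), and it did not pass without any 1 of the 6 libraries. Its S. cerevisiae libraries had 40.2 and 47.3 in the S. mikatae pair and 117 and 91.8 in the S. bayanus pair, so the S. paradoxus values lay below all 6. The S. cerevisiae set of the S. paradoxus pair, where STR3 was highest, was also the set with the highest summed post-diauxic and stress genes, and the part of this in the STR3 values was not tested. In the S. paradoxus hybrid STR3 had 7.17 and 4.88 for S. paradoxus and 26.5 and 23.1 for S. cerevisiae (log2 ratio -1.89 ± 0.61, adjusted p = 0.142).

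Methionine is activated by SAM1 (YLR180W) and SAM2 (YDR502C), a pair of S-adenosylmethionine synthetases whose coding sequences are 84.1% identical in S. cerevisiae, and reads were kept by the authors only where they mapped to 1 place. SAM1 rose in 2 species and fell in the third. It had 5675 and 6227 in S. mikatae homozygotes, against 1725 and 2349 in S. cerevisiae (log2 ratio 1.56 ± 0.28, adjusted p = 0.0384), and 2312 and 2784 in S. paradoxus, against 1128 and 838 in S. cerevisiae (log2 ratio 1.38 ± 0.31, adjusted p = 0.0478). In S. bayanus homozygotes SAM1 had 593 and 488, against 1576 and 2024 in S. cerevisiae (log2 ratio -1.73 ± 0.25, adjusted p = 0.0160). Scaling by total score put the adjusted p at 0.0544 in S. mikatae and 0.0644 in S. paradoxus, and the S. paradoxus ratio was 0.74 against all 6 S. cerevisiae libraries (adjusted p = 0.213). SAM1 also fell on the S. bayanus allele of the hybrid, with 612 and 497 for S. bayanus and 5335 and 5835 for S. cerevisiae (log2 ratio -3.34 ± 0.19, adjusted p = 0.00697), and the difference between the homozygote and the allele ratio, 1.61 ± 0.32 on the log2 scale (adjusted p = 0.0598), did not pass. SAM2 passed in no comparison, with homozygote log2 ratios of -1.15 in S. bayanus, 0.62 in S. mikatae and 1.88 in S. paradoxus.

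Of the genes that dispose of used S-adenosylmethionine, SAH1 (YER043C) hydrolyses S-adenosylhomocysteine and fell on the S. paradoxus allele of its hybrid. Its S. paradoxus allele had 3672 and 3189.5 and its S. cerevisiae allele 13474 and 13554 (log2 ratio -1.98 ± 0.32, adjusted p = 0.0485, and 0.119 with the library as a block or 0.0514 when scaled by total score). The SAH1 call was lost in 7 of 12 alternatives, 2 of which left out a hybrid library. In homozygotes SAH1 had 2999.9 and 3916 in S. paradoxus and 2557 and 2475 in S. cerevisiae (log2 ratio 0.45 ± 0.29, adjusted p = 0.321), so the S. cerevisiae allele of that hybrid stood above every homozygote library. MRI1 (YPR118W), an isomerase of the methionine salvage pathway, fell in S. mikatae, with 277 and 233 in homozygotes against 998 and 866 in S. cerevisiae (log2 ratio -1.87 ± 0.26, adjusted p = 0.0255). On the alleles MRI1 had 234 and 311 for S. mikatae and 1177 and 1319 for S. cerevisiae (log2 ratio -2.20 ± 0.27, adjusted p = 0.0272). ADI1 (YMR009W), the dioxygenase of the same pathway, rose in S. bayanus, with 386 and 347 in homozygotes against 92.6 and 46.6 in S. cerevisiae (log2 ratio 2.46 ± 0.42, adjusted p = 0.0210), and 522 and 453 on the S. bayanus allele against 125 and 143 on the S. cerevisiae allele (log2 ratio 1.86 ± 0.20, adjusted p = 0.0109). Neither MRI1 nor ADI1 overlapped between species in homozygotes or hybrids of these pairs.

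Of the transporters, SAM3 (YPL274W), the S-adenosylmethionine permease, had the largest fall. It had 27.9 and 44.4 in S. bayanus homozygotes, against 471 and 544 in S. cerevisiae (log2 ratio -3.81 ± 0.34, adjusted p = 0.00995), and 14.8 and 3.25 on the S. bayanus allele, against 979 and 583 on the S. cerevisiae allele of the hybrid (log2 ratio -6.53 ± 0.77, adjusted p = 0.0122). That S. bayanus allele had scores of 10 and 2 before scaling, and the allele ratio was -7.10 to -5.58 over the alternatives run. In S. paradoxus homozygotes SAM3 was higher, with 746 and 714 against 257 and 273 in S. cerevisiae (log2 ratio 1.46 ± 0.25, adjusted p = 0.0332). The 4 other S. cerevisiae libraries had 463 to 544, and against all 6 the S. paradoxus ratio did not pass (log2 ratio 0.86, adjusted p = 0.106). SAM4 (YPL273W) begins 385 bases after the stop codon of SAM3 on the same strand of chromosome XVI, so the window in which SAM3 transcript ends were counted was trimmed there. This is not particular to SAM3. In S. cerevisiae shorter gaps to the next gene of the same strand followed MET1 (180 bases), STR2 (198), CYS3 (215), MET16 (217) and MET22 (217), among others. MUP1 (YGR055W), the high-affinity methionine permease, was lower in S. mikatae homozygotes, with 481 and 547 against 1220.0 and 1365 in S. cerevisiae (log2 ratio -1.33 ± 0.24, adjusted p = 0.0385), and did not pass against all 6 S. cerevisiae libraries (log2 ratio -0.96, adjusted p = 0.0905). It was also lower on the S. bayanus allele, with 1140.3 and 954 against 2069.8 and 1948 on the S. cerevisiae allele (log2 ratio -0.94 ± 0.18, adjusted p = 0.0279, and 0.0558 with the block). MUP3 (YHL036W), a low-affinity methionine permease, passed in no comparison, and its S. cerevisiae homozygote libraries ran between 16.9 and 229.

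**Figure D4:**
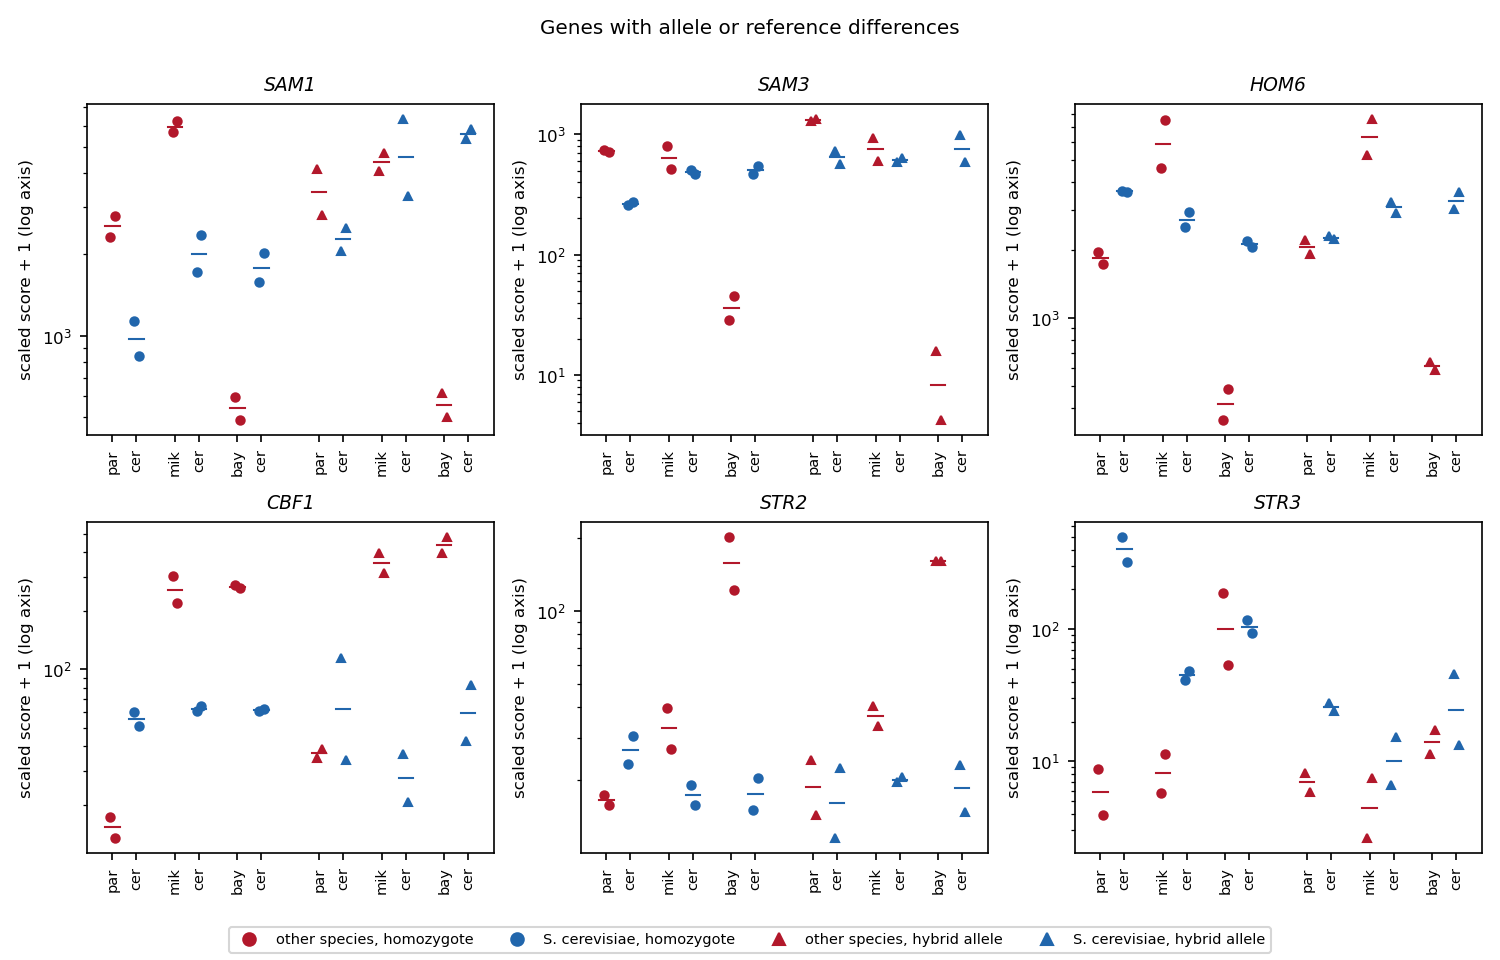
Scaled score plus 1 on a log axis of SAM1, SAM3, HOM6, CBF1, STR2 and STR3 in every homozygote library (circles) and hybrid allele (triangles), each species (red) left of S. cerevisiae (blue), with lines at the geometric means. In SAM3 the S. bayanus values lie at 44.4 or lower in homozygotes and hybrid alike, and in STR3 the S. cerevisiae libraries of the S. paradoxus pair lie at 322 and 500 above the other S. cerevisiae libraries.

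Among the regulators CBF1 (YJR060W), the DNA-binding partner of Met4, rose in S. mikatae and S. bayanus, in homozygotes and between alleles. It had 269 and 262 in S. bayanus homozygotes, against 60.1 and 61.2 in S. cerevisiae (log2 ratio 2.11 ± 0.25, adjusted p = 0.0118), and 301 and 218 in S. mikatae, against 59.6 and 63.5 in S. cerevisiae (log2 ratio 2.04 ± 0.31, adjusted p = 0.0300). In the S. bayanus hybrid CBF1 had 395 and 481 for S. bayanus and 41.6 and 81.6 for S. cerevisiae (log2 ratio 2.88 ± 0.41, adjusted p = 0.0164). In the S. mikatae hybrid it had 394 and 311 for S. mikatae and 35.4 and 19.6 for S. cerevisiae (log2 ratio 3.68 ± 0.41, adjusted p = 0.0253). The 6 S. cerevisiae homozygote libraries were close together, between 49.8 and 63.5, and the S. paradoxus homozygotes lay below them at 16.4 and 12.6 (log2 ratio -1.85 ± 0.44, adjusted p = 0.0549). In the S. bayanus hybrid the CBF1 call held under every alternative that was run.

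MET4 (YNL103W), the activator, had 436 and 436 in S. mikatae homozygotes, against 135 and 136 in S. cerevisiae (log2 ratio 1.68 ± 0.24, adjusted p = 0.0276), a call lost against all 6 S. cerevisiae libraries (adjusted p = 0.0625). In S. bayanus homozygotes MET4 had 276 and 143, against 162 and 31.3 in S. cerevisiae (log2 ratio 1.46 ± 0.92, adjusted p = 0.277), and in S. paradoxus 295 and 358, against 278 and 102 (log2 ratio 0.94 ± 0.56, adjusted p = 0.283). In the S. bayanus hybrid MET4 had 271 and 172 for S. bayanus and 83.3 and 64.6 for S. cerevisiae (log2 ratio 1.54 ± 0.34, adjusted p = 0.0385). MET4 was thus higher on average in every other species, but passed in 1 homozygote and 1 allele comparison. MET28 (YIR017C), a leucine-zipper partner of Met4, rose in S. bayanus homozygotes, with 172 and 139 against 9.19 and 22.2 in S. cerevisiae (log2 ratio 3.33 ± 0.53, adjusted p = 0.0183). On the alleles of that hybrid it had 71 and 8.13 for S. bayanus and 12.5 and 10.8 for S. cerevisiae (log2 ratio 1.02 ± 1.14, adjusted p = 0.520). In the S. mikatae and S. paradoxus pairs MET28 was at 25.9 or lower in every library and allele. MET31 (YPL038W) and MET32 (YDR253C), the zinc-finger proteins, and MET30 (YIL046W), the ubiquitin ligase part, passed in no comparison. MET31 had 239 and 208 in S. bayanus homozygotes, against 211 and 120.3 in S. cerevisiae, and MET32 had 80.4 and 39.7, against 14.1 and 18.1 (log2 ratio 1.76 ± 0.51, adjusted p = 0.0637). MET30 had 169 and 154 in S. mikatae homozygotes, against 81 and 73.4 in S. cerevisiae (log2 ratio 1.05 ± 0.28, adjusted p = 0.0696), and 23.3 and 62.1 in S. paradoxus, against 96.9 and 135 (log2 ratio -1.56 ± 0.59, adjusted p = 0.132).

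Homozygote and allele ratios were then set beside each other for each pair. Of the 37 genes, 22 passed in at least 1 homozygote comparison, 17 in at least 1 allele comparison and 12 in both kinds. The same counts were not taken over all genes, so they describe the list only. In any 1 homozygote comparison 19.6% to 34.6% of all genes passed, and in any 1 allele comparison 5.03% to 35.4%. The 10 sulfur genes that passed in none were MET8 (YBR213W), which like MET1 serves siroheme synthesis, HOM2, MET6, MET13, CYS4, SAM2, MUP3, MET30, MET31 and MET32. In S. bayanus, 8 of the 36 genes tested in both passed in both (MET22, HOM6, MET2, STR2, SAM1, ADI1, SAM3 and CBF1), all in the same direction, where 20.1% of 4509 genes did so. In S. mikatae 3 of 35 did (MET22, MRI1 and CBF1), where 7.42% of 4502 genes did, and in S. paradoxus 0 of 33, where 2.14% of 4486 did. These shares were near those of all genes. The remaining 7 genes called in S. bayanus homozygotes were MET3, MET14, MET10, MET17, HOM3, CYS3 and MET28, of which only MET14 and MET17 had a called difference between the ratios. In S. paradoxus that limma test passed 0 of 36 sulfur genes, where 0.808% of 4582 genes passed, 0.284% with the homozygote ratio higher and 0.524% lower. An unadjusted p under 0.05 was found there for 8 of the 36 and for 926 of the 4582. In S. mikatae the test passed 0 of 36 as well, where 0.109% of 4567 genes passed, 0.0219% higher and 0.0876% lower. An unadjusted p under 0.05 was found there for 10 of the 36 and for 638 of the 4567. Among the 11 genes called higher in S. bayanus homozygotes, 9 held CACGTG in the 400 bases before the S. cerevisiae start codon, as against 2 of the 4 called lower and 21 of the 40 genes in all. In S. mikatae homozygotes 3 of 4 called higher and 2 of 4 called lower held it, and in S. paradoxus 1 of 4 and 1 of 2. Between S. bayanus alleles 4 of 6 called higher and 1 of 4 called lower held it. Between S. mikatae alleles these were 3 of 4 and 2 of 4, and 2 of the 2 called lower between S. paradoxus alleles. These counts describe the lists and were not tested.

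**Figure D5:**
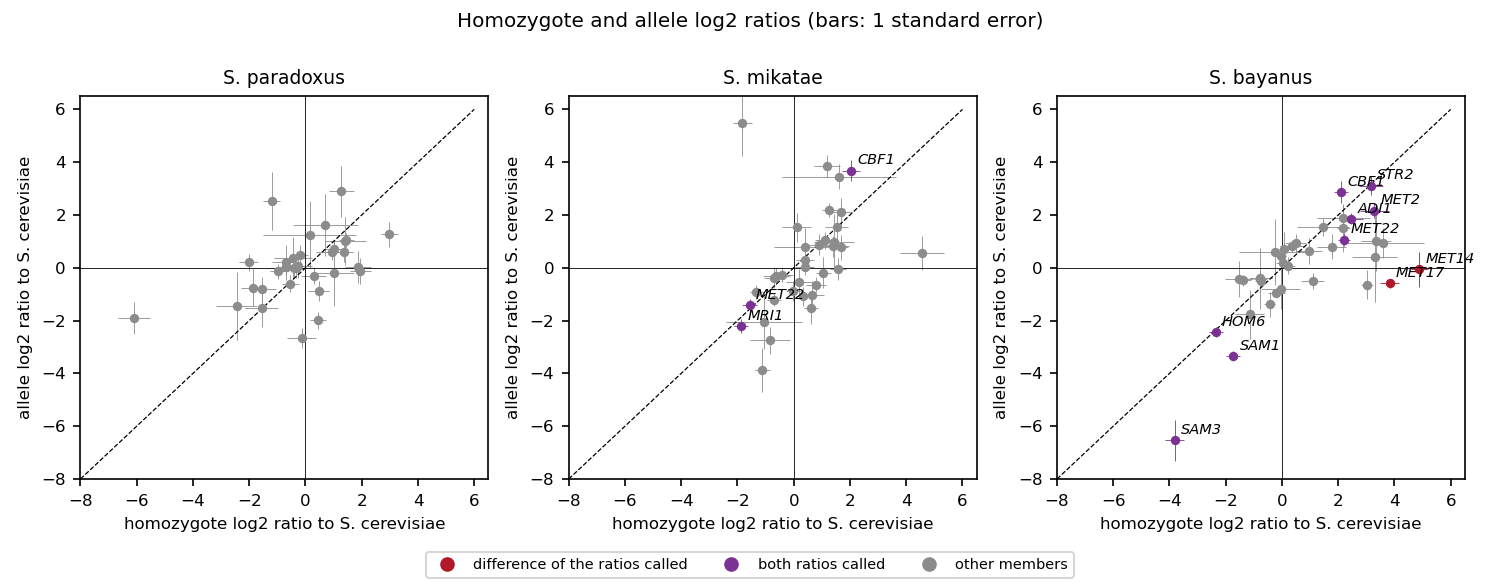
Log2 ratio over S. cerevisiae between alleles of the hybrid (vertical) against that between homozygotes (horizontal) for each tested sulfur gene in the 3 pairs, with bars of 1 standard error, the dashed line where both are equal, and names where both ratios (purple) or their difference (red) passed. In the S. bayanus panel MET14 and MET17 lie far right of the dashed line, at homozygote ratios of 4.88 and 3.82 and allele ratios of -0.06 and -0.59.

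MET1 stood apart in the hybrids. Its S. cerevisiae allele had between 0 and 5.55 over the 6 hybrid alleles, against 93.3 to 143 in the 6 S. cerevisiae homozygote libraries. On the other alleles it had 34 and 6.1 for S. paradoxus, 14.8 and 125 for S. mikatae and 2.96 and 1.63 for S. bayanus. It was listed at 0 on the S. cerevisiae allele in both libraries of the S. mikatae hybrid, so no fold is given there, and in the S. bayanus hybrid it was too low to test. No test was run between hybrids and homozygotes of the same allele, and MET1 is named here after its values were seen.

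Genes outside the list that are related to sulfur metabolism were counted in the same way. The 25 genes belong mainly to glutathione, methionine oxidation, salvage and folate metabolism. They also include transporters such as SSU1, YCT1 and SOA1 and the regulators FZF1 and GCN4, and 19 of the 25 were listed. In S. bayanus homozygotes 1 rose and 7 fell, beside 18.3% and 16.3% of all genes, and the median log2 ratio was -0.82. These counts were not tested against those of other genes. The one that rose was MXR1, methionine sulfoxide reductase (log2 ratio 1.32 ± 0.23, adjusted p = 0.0211), and GSH2, glutathione synthetase, fell (log2 ratio -2.87 ± 0.21, adjusted p = 0.00995). In the S. bayanus hybrid MXR1 went the other way, with 726 and 405 on the S. bayanus allele and 9767 and 2119 on the S. cerevisiae allele. On S. bayanus alleles 4 of the 19 were higher and 8 lower, beside 18.3% and 17.1% of all genes. In S. mikatae homozygotes 0 rose and 5 fell, beside 8.21% and 11.4%, with 7 at an unadjusted p under 0.05 in limma, and in S. paradoxus homozygotes 0 rose and 2 fell, beside 8.37% and 11.5%, with 6 at an unadjusted p under 0.05. Over all genes 1796 of 4568 in S. mikatae and 1796 of 4588 in S. paradoxus homozygotes had an unadjusted p under 0.05. SSU1, the sulfite exporter, fell in all 3 homozygote comparisons, with log2 ratios of -1.10 in S. bayanus, -2.55 in S. mikatae and -2.96 in S. paradoxus.

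With 2 libraries in each group, many calls were lost when 1 was left out, in fits with 1 residual degree of freedom for homozygotes. Leaving out any 1 of the 4 libraries ended every call, over all genes, in the S. paradoxus and S. mikatae homozygote comparisons, and so did leaving out either library of those hybrids. In those limma fits 7 to 19 sulfur genes had an unadjusted p under 0.05 in S. paradoxus and 11 to 15 in S. mikatae homozygotes, and 5 to 6 and 10 to 15 between their alleles. In S. bayanus homozygotes 12 sulfur genes passed without S. cerevisiae replicate 5 or without replicate 6, and 0 passed limma's test without S. bayanus replicate 1 or without replicate 2, with 15 and 19 at an unadjusted p under 0.05. Between S. bayanus alleles 5 passed without replicate 1 of the hybrid and 6 without replicate 2, and HOM6, SAM1, SAM3 and CBF1 passed in both. The spread in fits that leave out a hybrid library came from the 4 homozygote libraries of the pair, since 1 value of each allele was left. The log2 ratio of MET7 in S. paradoxus homozygotes was 2.74 to 3.22 without 1 library, and that of MET17 in S. bayanus homozygotes 3.55 to 4.10.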

How the data were processed

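Transcript ends were measured by strand-specific, paired-end sequencing of poly-adenylated RNA. Per the study's methods and the processing notes (CASAVA 1.7, Bowtie 0.12.7), the authors mapped reads to both genomes of a pair, kept those with 1 place, removed reads primed inside transcripts, and counted them per gene in windows trimmed at neighbouring genes. The deposited values are a score, namely reads weighted for GC content within a lane and rounded, with no scaling between libraries. They are not raw counts, so no count model was used. Two-species tables were joined on the open reading frame. No column of per-sample values was left unused.

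Each library, or allele of a hybrid library, was divided by its own upper quartile, and log2(scaled score + 1) was fitted with limma 3.58.1 (R 4.3.3) with a mean-variance trend, for genes with a mean scaled score of at least 10. A gene passed at a Benjamini-Hochberg adjusted p under 0.05 over all genes. Each homozygote was set against the 2 S. cerevisiae libraries of its genome pair, each allele against the S. cerevisiae allele, and the homozygote ratio against the allele ratio. An F-test compared the 3 sets of S. cerevisiae homozygote libraries. With 2 replicates a group, p-values measure the spread between these libraries only. The scripts were tested on simulated data with known log2 differences. Of differences of 2, homozygote tests recovered 34.7% to 57.6% and allele tests 39.2% to 55.6%. Tests of the homozygote ratio against the allele ratio recovered 8.16% (S. paradoxus), 15.2% (S. mikatae) and 29.6% (S. bayanus). Of differences of 5, the tests recovered 84.8% to 98.0%. A gene that did not pass may therefore still differ. Unchanged genes were 15 of 167 calls in simulated S. paradoxus homozygotes, 6 of 134 in S. mikatae and 5 of 134 in S. bayanus. Between alleles they were 13 of 166, 10 of 139 and 5 of 152. For the difference of ratios they were 3 of 95, 6 of 106 and 6 of 119. The simulations changed 95 to 100 tested genes at each size, while 227 to 1606 genes passed in the real homozygote and allele comparisons. The shares recovered may therefore differ in the data. Figures used Python 3.11.15 with Matplotlib 3.10.9 and NumPy 2.4.6, and sequences were read with Biopython 1.88.

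The alleles in a hybrid were read from the same library, which pairs them. Their replicate differences across genes had correlations of 0.0588 (S. paradoxus hybrid), 0.0112 (S. mikatae hybrid) and 0.0291 (S. bayanus hybrid). Fits with the library as a block are given where they change a call.

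The genes, lists and tests were chosen with earlier results of these data known. The naming rule gave values per library for MET17, the regulators, genes whose homozygote and allele ratios differed, and up to 8 called genes a comparison whose mean reached 50 and whose groups did not overlap, by size of ratio. Values per library beyond that rule were chosen after they were seen. Motifs were searched as exact letters on both strands. Alternatives were other scalings, filters, constants, fits, S. cerevisiae references and left-out libraries.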

Additional observations from a re-analysis of the deposited data

Results flagged for a closer look

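Among the 6 S. cerevisiae homozygote libraries, 4 of 37 genes had 1 library far from the other 5. The cutoff is one that flags about 5% of groups by chance where values are normally distributed. The scores were not put on a log scale for this, and the share over all genes was not taken. The count can therefore not be read as more than chance gives. SUL2 was high in replicate 6, with a scaled score of 309. MET3 was also high in replicate 6, with 95.2. SAH1 was high in replicate 3, with 4449.7. CBF1 was low in replicate 2, with 49.8, within an otherwise narrow range.

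The homozygote ratio over S. cerevisiae exceeded the allele ratio in the S. bayanus pair by 4.94 for MET14 and 4.42 for MET17 on the log2 scale, by the test of that difference. With 1 library left out the difference was 3.95 to 5.93 for MET14 and 4.14 to 4.69 for MET17. All such fits lost the MET14 call and some lost the MET17 call. MET14 also did not pass with the hybrid library as a block.

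Other genes passed in opposite directions in different species, and for these the difference between species was not tested. MET22 had a log2 ratio of 2.21 in S. bayanus homozygotes and -1.56 in S. mikatae homozygotes, and of 1.07 and -1.42 on the alleles of the same species. SAM1 had a log2 ratio of -1.73 in S. bayanus homozygotes, 1.56 in S. mikatae and 1.38 in S. paradoxus. SAM3 had a log2 ratio of -3.81 in S. bayanus homozygotes and 1.46 in S. paradoxus homozygotes.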

How the results depend on the processing

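The 56 gene results were recomputed under 745 combinations of gene and alternative. Direction and side of the threshold were kept in 554, the call was lost in 188, and 1 gained a call: MET17 between S. bayanus alleles, with a log2 ratio of -0.68 and an adjusted p of 0.0478 with 1 upper quartile per hybrid library. MET17 changed sign between S. paradoxus alleles with that scaling (0.085) and between S. mikatae alleles (-0.12 without hybrid replicate 1 and 1.25 without replicate 2), and passed in neither pair. With 1 upper quartile per hybrid library all genes had a median log2 ratio of 0.22 between S. paradoxus alleles and 0.12 between S. mikatae alleles.

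Counts of sulfur genes that passed moved as follows. The share of all genes that passed under each setting, or with the blocks below, is not given beside them. The moves can therefore not be read as particular to the sulfur genes. In S. paradoxus homozygotes 15 passed with all 12 homozygote libraries in one fit in place of 6, and 0 without any 1 library. Between S. paradoxus alleles, 0 passed in place of 2 with total scores, 1 with a minimum mean of 50, 1 with a constant of 0.5, 1 with 1 upper quartile per hybrid library, 1 with all 12 alleles in one fit, and 0 without either hybrid library. In S. mikatae, 0 of 8 passed in homozygotes without any 1 library, and between alleles 13 passed with all 12 alleles in one fit and 0 without either hybrid library. In S. bayanus, leaving out 1 library gave 0 to 12 in place of 15 in homozygotes and 5 to 6 in place of 10 between alleles. For the difference between homozygote and allele ratios in S. paradoxus, 1 passed in place of 0 with the median of ratios, 2 with a constant of 8 and 1 without a trend. In S. mikatae 1 passed in place of 0 against all 6 S. cerevisiae libraries. In S. bayanus 1 passed in place of 2 against all 6, and 0 to 1 without 1 library. Between the sets of S. cerevisiae libraries 0 passed in place of 1 without any 1 library. A fit of 3 homozygote libraries leaves 1 residual degree of freedom, and a fit without a hybrid library takes its spread from the 4 homozygote libraries of the pair, so both assume that the lone value varies like the others. Apart from such fits, the cause of these changes was not tested.

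With the hybrid library as a block, 0 sulfur genes passed between S. paradoxus alleles and 0 between S. mikatae alleles. Homozygote libraries share only a number with S. cerevisiae libraries, the replicate number of their tables within a genome pair, with correlations of replicate differences of 0.0159 in S. paradoxus, 0.0252 in S. mikatae and -0.0102 in S. bayanus. With that replicate number as a block 2 sulfur genes passed in S. paradoxus homozygotes (MET7 and STR3), 0 in S. mikatae, with 15 at an unadjusted p under 0.05 in limma, and 12 in S. bayanus. Without the block 16 of 36 sulfur genes and 1796 of 4568 genes in all had an unadjusted p under 0.05 in S. mikatae homozygotes. The scaling fitted to the difference between ratios with 1 upper quartile per hybrid library was chosen after seeing the data.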
